A study of Mus musculus with 16 samples.

Results

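The fat cell genes described here are 10 genes that mark adipocytes: Adipoq, Plin1, Plin4, Lep, Fabp4, Cfd, Cidec, Retn, Pparg and Lpl. They were taken from a written list, chosen with earlier results of these data known, and were matched by symbol to the table of expected counts. All 10 were found among the 53465 genes of the table, and all 10 passed edgeR's filter on low counts, also in a fit of the IgG and NR tumors only. The tumors were MC38 tumors, grown from a mouse colon adenocarcinoma line under the skin of the right flank of female C57BL/6 mice of 6 to 8 weeks. Mice entered the study with tumors of 150 to 250 mm3 on day 16 and received 200 µg of either control IgG or an antibody against PD-1 (aPD-1) on days 16 and 20. Tumors were taken on day 21, and RNA came from 2 sections of 100 µm each of the frozen part of the tumor. There were 8 IgG tumors (replicates 1 to 8), 6 aPD-1 non-responder tumors (NR, replicates 9 to 14) and 2 aPD-1 responder tumors (R, replicates 15 and 16), each from another mouse. Response was designated by the study from T cell staining, so the R group stands for tumors with many T cells on day 21, and it has only 2 of them.

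White fat cells keep triglyceride in a single large lipid droplet. Coat proteins such as perilipins and Cidec cover the droplet, lipoprotein lipase outside the cell frees fatty acids from circulating lipoproteins, and fatty acid binding protein carries them inside. The same cells secrete hormones and other proteins, among them adiponectin, leptin, resistin and adipsin, and the nuclear receptor Pparg together with C/EBP factors switches this programme on. Fat lies beneath mouse skin and around the inguinal lymph nodes and the mammary gland, so a tumor in the flank grows beside it.

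The stretches before the start site of 4 of these genes are shown because C/EBP factors and Pparg are the textbook regulators of the programme. RefSeq windows on GRCm38.p6, from 250 bases before to 50 bases after a start, were found for 8 of the 10 genes (11 windows, as Cidec and Pparg have several starts). The stretches printed end before the first annotated exon base. Capitals mark matches to TTNNGCAA, a loose form of the C/EBP site, on either strand.
Adipoq (chr16:23146286-23146535, plus strand): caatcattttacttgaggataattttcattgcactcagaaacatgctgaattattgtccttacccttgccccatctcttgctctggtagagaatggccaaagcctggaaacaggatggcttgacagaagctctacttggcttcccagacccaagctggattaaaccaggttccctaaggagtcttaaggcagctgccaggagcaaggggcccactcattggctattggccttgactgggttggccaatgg
Lep (chr6:29059971-29060219, plus strand): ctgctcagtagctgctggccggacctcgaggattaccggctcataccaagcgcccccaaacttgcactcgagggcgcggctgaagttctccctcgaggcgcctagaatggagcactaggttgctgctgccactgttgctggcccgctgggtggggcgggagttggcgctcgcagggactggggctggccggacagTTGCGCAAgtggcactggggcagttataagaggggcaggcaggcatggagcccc
Plin1 (chr7:79732904-79733026, minus strand): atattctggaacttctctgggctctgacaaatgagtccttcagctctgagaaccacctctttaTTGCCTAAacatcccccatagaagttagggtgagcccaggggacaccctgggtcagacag
Pparg (chr6:115421816-115422065, plus strand, the most downstream of its 3 starts): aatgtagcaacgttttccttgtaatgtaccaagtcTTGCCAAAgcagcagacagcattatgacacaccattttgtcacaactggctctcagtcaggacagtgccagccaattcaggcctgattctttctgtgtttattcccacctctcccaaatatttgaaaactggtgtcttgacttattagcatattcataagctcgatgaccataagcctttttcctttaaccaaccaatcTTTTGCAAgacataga

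The loose site was present in 4 of the 11 windows, those of Cidec, Lep, Plin1 and one start of Pparg, against 10.8% of all 32851 windows of the same length. In Lep the match, 55 bases before the start, is the full palindrome TTGCGCAA, which 0.183% of all windows hold and which is also a match to the loose form. The window of Adipoq held no match. The Pparg site in its textbook form, a direct repeat of AGGTCA with 1 base between the copies, searched on both strands, was in none of the 11 windows and in 0.0396% of all windows. These matches describe letters in short windows only.

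The libraries held 26603449 to 39948866 counts each (median 34105782), and after scaling a single count stood for 0.0253 to 0.0380 CPM, which are counts scaled to a library of a common size. Some libraries stood apart from the others. The mitochondrial share was 7.60% in IgG tumor 1, 6.00% in NR tumor 9 and 5.74% in NR tumor 14, and 2.52% to 3.25% in the other 13. A single entry took 20.4% of the counts of IgG tumor 3, and skeletal muscle genes summed to 2021 CPM in IgG tumor 6, against at most 75.6 CPM in any other tumor. Of epithelial genes, Epcam reached 0.942 CPM at most in the 14 IgG and NR tumors but 10.6 and 5.32 CPM in R tumors 15 and 16. Cdh1 was at 3.75 to 8.12 CPM in the 14 and at 9.78 and 8.55 CPM in the R tumors, Vil1 was at 0.283 CPM or below and Cdx2 at 0.0259 CPM or below in all 16.

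The R tumors held more transcript of every fat cell gene than any other tumor. The 10 genes together took 0.340% of all counts in R tumor 15 and 0.0617% in R tumor 16, and between 0.00175% (IgG tumor 3) and 0.0188% (IgG tumor 7) elsewhere. In bulk tissue, a larger number of fat cells and more RNA of these genes per fat cell cannot be told apart. The levels below are CPM scaled by the TMM method, for each gene the lowest, median and highest tumor of IgG and NR, and both R tumors.

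Among the secreted proteins, adiponectin is the hormone most restricted to fat cells. Its gene Adipoq (ENSMUSG00000022878, chromosome 16, 23146536 to 23158028, plus strand) was at 0.0374, 2.002 and 9.17 CPM in IgG and at 0.152, 1.09 and 5.41 CPM in NR tumors. R tumor 15 had 188.6 CPM and R tumor 16 had 31.0 CPM. The lowest value, in IgG tumor 3, was a single count, and the IgG and NR tumors overlapped over nearly their whole range while both R tumors lay above them. Cfd (ENSMUSG00000061780, chromosome 10, 79890853 to 79892655, plus strand) encodes adipsin, a serine protease of the alternative complement pathway, and was at 0.861, 9.94 and 64.5 CPM in IgG and at 2.005, 6.92 and 43.2 CPM in NR tumors. In R tumors 15 and 16 it stood at 1106 and 191.3 CPM, the highest levels of the 10 genes. Resistin, a hormone made by fat cells in mice, is encoded by Retn (ENSMUSG00000012705, chromosome 8, 3655770 to 3660110, plus strand). Retn was at 0.115, 0.666 and 4.22 CPM in IgG, at 0.0911, 0.342 and 2.54 CPM in NR, and at 61.0 and 17.5 CPM in the R tumors. Leptin signals the size of the fat stores to the brain. Its gene Lep (ENSMUSG00000059201, chromosome 6, 29060220 to 29073877, plus strand) had no count in IgG tumor 3, a median of 0.814 CPM and a highest level of 2.36 CPM in IgG tumors, and was at 0.135, 0.466 and 1.85 CPM in NR tumors. The R tumors had 55.0 and 7.002 CPM of Lep, so that for all 4 secreted proteins the lower R tumor was above the highest of the other 14.

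The lipid droplet genes were likewise highest in the R tumors. Plin1 (ENSMUSG00000030546, chromosome 7, 79720218 to 79732903, minus strand) encodes perilipin 1, the main droplet coat of fat cells and a gatekeeper of lipolysis. It was at 0.0749, 1.03 and 5.03 CPM in IgG, at 0.213, 0.629 and 3.96 CPM in NR, and at 125.4 and 20.9 CPM in the R tumors. Cidec (ENSMUSG00000030278, chromosome 6, 113424634 to 113435760, minus strand), which fuses small droplets into large ones, was at 0.0374, 1.45 and 7.11 CPM in IgG and at 0.305, 0.525 and 4.50 CPM in NR. R tumors 15 and 16 had 122.0 and 25.0 CPM of it. Both genes were lowest in IgG tumor 3 and highest, outside R, in IgG tumor 7. Plin4 (ENSMUSG00000002831, chromosome 17, 56100591 to 56109803, minus strand), another perilipin of nascent droplets, was at 0.487, 4.07 and 11.3 CPM in IgG, at 1.35, 2.35 and 10.5 CPM in NR, and at 358.6 and 27.1 CPM in the R tumors. Of the 10 genes, it differed most between the R tumors, 13.3-fold.

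The genes of fatty acid handling stood on a higher floor, and the regulator Pparg varied least. Fabp4 (ENSMUSG00000062515, chromosome 3, 10204088 to 10208576, minus strand), the fatty acid carrier that capillary cells and macrophages also make, was at 15.3, 25.4 and 55.9 CPM in IgG and at 18.02, 22.4 and 37.0 CPM in NR tumors. It reached 689.2 and 129.0 CPM in the R tumors. Lpl (ENSMUSG00000015568, chromosome 8, 68880491 to 68907448, plus strand), the lipase that macrophages and muscle also make, was at 3.29, 16.2 and 29.7 CPM in IgG, at 8.48, 12.2 and 25.0 CPM in NR and at 465.6 and 131.7 CPM in the R tumors. No IgG or NR tumor came near 0 for either gene. Pparg (ENSMUSG00000000440, chromosome 6, 115360951 to 115490399, plus strand), the nuclear receptor that drives fat cell differentiation and that macrophages also use, was at 0.798, 1.37 and 2.45 CPM in IgG and at 1.16, 1.36 and 1.52 CPM in NR tumors. In R tumors 15 and 16 it was at 20.5 and 5.01 CPM. Its NR tumors lay inside the range of the IgG tumors.

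**Figure D1:**
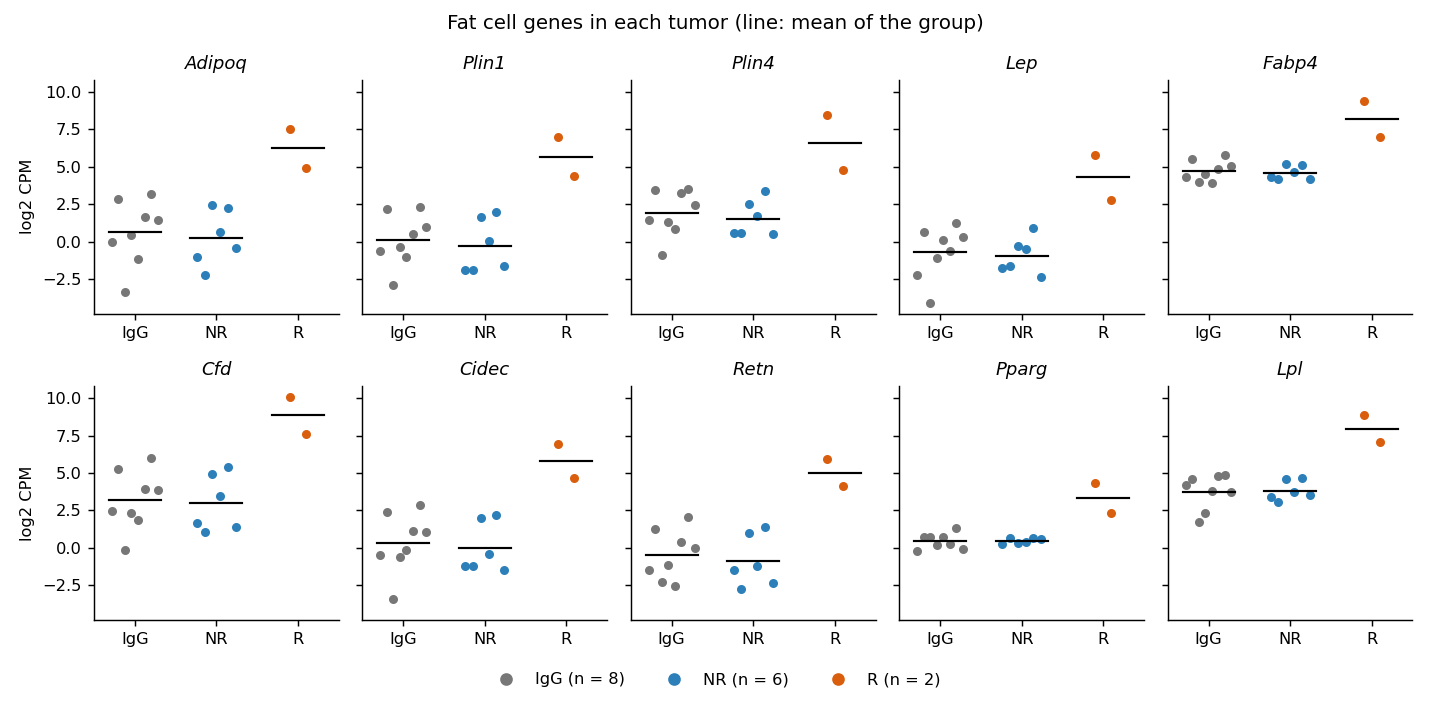
Level of each of the 10 fat cell genes in each tumor, as log2 CPM (prior count 2), by group: 8 IgG (grey), 6 NR (blue) and 2 R tumors (orange), with a line at the group mean. Both R tumors lie above all 14 other tumors for all 10 genes, while the points of IgG and NR overlap and those of Pparg are much closer together than those of Adipoq.

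The spread among the 14 IgG and NR tumors separated these genes into kinds. From the lowest to the highest of the 14, Cfd varied 74.9-fold, Retn 46.3-fold and Plin4 23.3-fold. Against a floor of 3 counts per library, Adipoq varied at least 81.6-fold, Cidec at least 63.4-fold, Plin1 at least 44.8-fold and Lep at least 21.0-fold. Lpl varied 9.02-fold, Fabp4 3.66-fold and Pparg 3.07-fold. The same tumors were high for most of the genes. IgG tumor 7 was the highest of the 14 for all 10 genes, IgG tumor 2 was among the highest 4 for all 10, NR tumor 13 for 9 and NR tumor 11 for 6. IgG tumor 3 was among the lowest 4 for 9 genes, NR tumors 9 and 10 for 8 and NR tumor 14 for 7. These low tumors include 2 of the 3 with a high mitochondrial share and the tumor with 1 dominant entry, and the part of these features in the low levels was not tested.

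Within a tumor, Plin1, Cfd and Retn kept the closest proportions to Adipoq. Over the 13 IgG and NR tumors with more than 3 counts of Adipoq, the ratio of Plin1 to Adipoq ran from 0.400 to 1.40 with a median of 0.603, and it was 0.665 in R tumor 15 and 0.675 in R tumor 16. Cfd ran from 3.80 to 13.2 times the Adipoq level, with a median of 5.64, and was at 5.87 and 6.17 times that level in the R tumors. For Retn the ratio was 0.200 to 0.714 with a median of 0.347, and 0.323 and 0.564 in the R tumors. The ratios of these 3 genes thus varied 3.47-fold to 3.57-fold over tumors in which Adipoq ran from 0.152 to 9.17 CPM. The proportions of the other genes were looser. The ratio to Adipoq ran from 0.450 to 2.40 for Cidec (5.33-fold), from 1.04 to 9.40 for Plin4 (9.06-fold) and from 0.138 to 2.57 for Lep (18.6-fold), with values in R tumors 15 and 16 of 0.647 and 0.805 for Cidec, 1.90 and 0.872 for Plin4 and 0.292 and 0.226 for Lep. These ratios rest on few counts in the tumors with little Adipoq. Fabp4 was at a median of 16.7 times Adipoq in the 13 tumors but at 3.66 and 4.16 times in the R tumors, and Lpl at a median of 8.75 times but at 2.47 and 4.24 times. Pparg fell furthest, from a median ratio of 0.837 to 0.109 and 0.161.

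Per kilobase of annotated exon, Cfd had the highest level of the 10 genes in R tumor 15, at 1200 CPM per kilobase, and also the highest median over the 14 other tumors, at 8.74 CPM per kilobase. Fabp4 came next among the 14, at 5.29. The lowest of the 10 was Pparg in R tumor 15, at 6.95, and Plin1 in the median of the 14, at 0.184 CPM per kilobase, close to Lep at 0.187. Exon length was summed over all annotated transcripts, which overstates the length for genes with long rare transcripts such as Fabp4 and Lpl. The levels per kilobase of these genes are thus too low, and the order of Cfd and Fabp4 is not settled by them.

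Over the 14 IgG and NR tumors, 6 of the 9 other fat cell genes correlated with Adipoq after adjustment over all 18250 genes. Only 8 of those 18250 genes did so, 0.0438% of all. No R tumor enters these coefficients, but the filter on low counts that chose the 18250 genes used the R tumors too. With the IgG and NR tumors only, that filter kept 15940 genes. The adjusted p and the share of all genes thus depend in part on the R tumors. Pearson's r of log2 CPM with Adipoq was 0.973 for Cfd, 0.972 for Plin1, 0.956 for Plin4, 0.948 for Cidec and 0.923 each for Retn and Fabp4 (adjusted p = 0.0228 each, two-sided permutation test with 100000 permutations, n = 14). The unadjusted p of each was 1e-05, the smallest these permutations can give. The other 2 genes of the 8 were Ces1d (r = 0.928), a carboxylesterase that hydrolyses lipids in fat cells, and Tmem45b (r = 0.902). Krt18, with r = 0.904, ranked between those 2 genes but did not pass, so the edge of this set of 8 is uncertain. Lep had r = 0.822 (adjusted p = 0.162) and Lpl r = 0.813 (adjusted p = 0.174), both short of the threshold. Pparg had r = 0.09 (adjusted p = 0.930), so its level in these 14 tumors gave no sign of following Adipoq.

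Spearman's rho with Adipoq gave the same 6 genes, from 0.908 for Cidec to 0.978 for Plin1 (adjusted p = 0.0365 to 0.0456, permutation test, n = 14), with 0.811 for Lpl, 0.771 for Lep and 0.055 for Pparg. Leaving out the tumors whose Adipoq was farthest from the median, IgG 3 and NR 10, gave r of 0.936 to 0.972 for those 6 genes, 0.720 for Lep, 0.670 for Lpl and 0.368 for Pparg. In the 9 tumors left without the IgG and NR libraries that stood apart, a choice made after the data were seen, r was 0.922 to 0.987 for the 6 genes, 0.761 for Lep, 0.723 for Lpl and 0.175 for Pparg. Among all pairs of the 10 genes, the 36 pairs without Pparg had r between 0.702 (Fabp4 with Lpl) and 0.990 (Plin1 with Cfd) over the 14 tumors, with a median of 0.913. The 9 pairs with Pparg had r between 0.089 and 0.293. Over all 16 tumors Spearman's rho passed for 8 of the 9 genes, and for 298 of all 18250 genes. Pparg did not pass, with a rho of 0.37 (adjusted p = 0.489, permutation test, n = 16). By Pearson's r all 9 genes passed, Pparg included, but so did 10.6% of all genes, and the R tumors lie far from the others. With R tumor 15 left out, 8 of the 9 passed and 0.4% of all genes did.

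**Figure D2:**
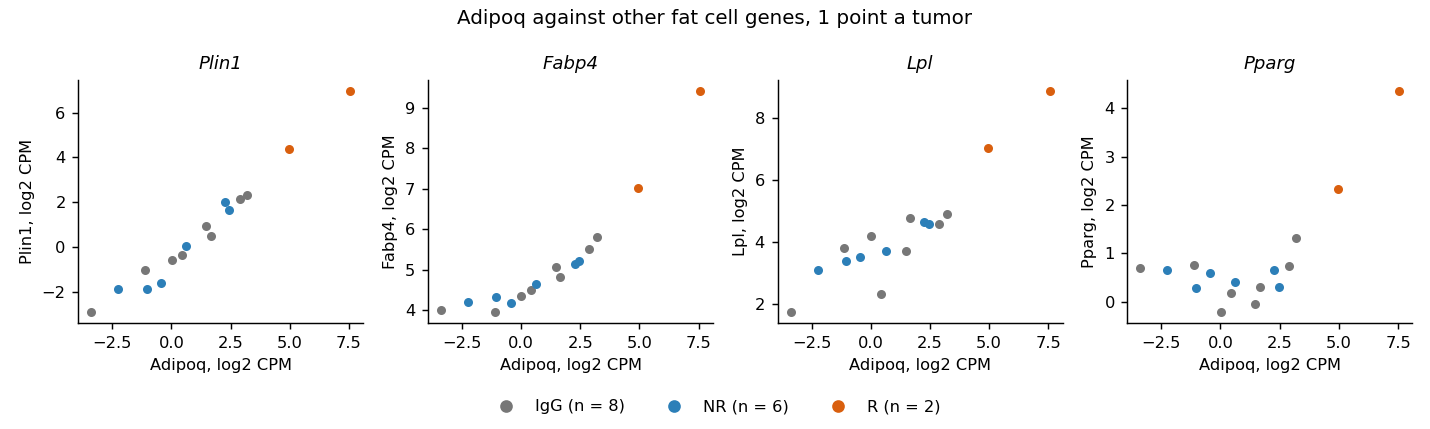
Adipoq (horizontal axis) against Plin1, Fabp4, Lpl and Pparg (vertical axes), all as log2 CPM with a prior count of 2, with 1 point for each of the 8 IgG (grey), 6 NR (blue) and 2 R tumors (orange). Plin1 runs along a line through all tumors (r = 0.972 over the 14 IgG and NR tumors), whereas Pparg is flat over those 14 tumors (r = 0.09) and stands higher only in the R tumors.

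Whether fat cell genes differ between responding and non-responding tumors was tested with edgeR's quasi-likelihood test in 1 fit of the 16 tumors, with Benjamini-Hochberg adjustment over the 18251 genes tested. Calls needed an adjusted p under 0.05 together with a log2 fold change of more than 1 in either direction. All 10 fat cell genes were called higher in R than in NR tumors, where 12.5% of all genes tested were called higher. The 7 genes that varied most among the other tumors rose by similar amounts. For Adipoq the log2 fold change was 5.66 ± 1.16 (SE, adjusted p = 0.00237, edgeR), for Plin1 5.64 ± 1.08 (adjusted p = 0.00135) and for Plin4 5.60 ± 0.96 (adjusted p = 0.000514). Lep, Retn, Cidec and Cfd rose by 5.41 to 5.54. The rise was smaller for Lpl, at 4.28 ± 0.61 (adjusted p = 9.06e-05), for Fabp4, at 4.001 ± 0.49 (adjusted p = 1.74e-05), and for Pparg, at 3.24 ± 0.39 (adjusted p = 1.42e-05), the genes with the highest floor or least spread in the other tumors.

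The lower R tumor exceeded the highest of the 14 other tumors 2.05-fold for Pparg and 4.43-fold for Lpl, with the other 8 genes between these. Both R tumors were above all 14 others for 10 of 10 genes, as they were for 16.7% of all genes tested. The exact permutation test of single genes gave p = 0.0714 for each gene between 2 R and 6 NR tumors (two-sided), which is the smallest that the 28 arrangements allow. Against the 8 IgG tumors, all 10 genes were again called higher in R, with log2 fold changes of 3.18 to 5.32, where 14.3% of all genes were called higher and 0.641% lower, and the exact permutation p was 0.0444 for each. Both comparisons use the same R tumors.

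The size of the difference and the calls depended on R tumor 15. Its levels were 3.49-fold (Retn) to 13.3-fold (Plin4) those of R tumor 16. The median log2 fold change of the 10 genes against NR was 5.43 with both R tumors. It was 3.46 without R tumor 15 and 6.12 without R tumor 16. Without R tumor 15, only 3 of the 10 genes were called higher in R than in NR, where 4.67% of all genes were: Fabp4 with a log2 fold change of 2.27 (adjusted p = 0.0102, edgeR), Pparg with 1.82 (adjusted p = 0.0125) and Lpl with 3.03 (adjusted p = 0.0153). The other 7 had log2 fold changes of 2.71 (Plin4) to 4.21 (Retn) and adjusted p of 0.0762 (Retn) to 0.215 (Cfd). Against IgG 3 genes were called as well, where 6.27% of all genes were. Without R tumor 16, all 10 were called in both comparisons, where 12.3% and 14% of all genes were. When 1 R tumor is left, its spread is taken to be that of the other groups.

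Between NR and IgG tumors no difference in these genes passed the test. The log2 fold changes ran from -0.54 ± 0.87 (SE, Adipoq) to -0.06 ± 0.29 (Pparg), with adjusted p of 0.987 to 0.992 (edgeR), and 0 of 10 genes and 0 of all genes tested were called. At an unadjusted p under 0.05 there were 694 genes, and DESeq2 called 4, none of them a fat cell gene. In the randomized comparison, all 8 aPD-1 tumors against the 8 IgG tumors, the fat cell genes had log2 fold changes of 1.60 (Pparg) to 3.43 (Plin1), unadjusted p of 0.0132 to 0.0235 and adjusted p of 0.306 to 0.352 (edgeR), so 0 of 10 were called, as were 0 of all 15775 genes in that fit. At an unadjusted p under 0.05, which all 10 fat cell genes had, there were 11.4% of all genes. The exact permutation p of single genes lay between 0.219 and 0.470 (two-sided), and of the 8 aPD-1 tumors only the 2 R tumors were above every IgG tumor.

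**Figure D3:**
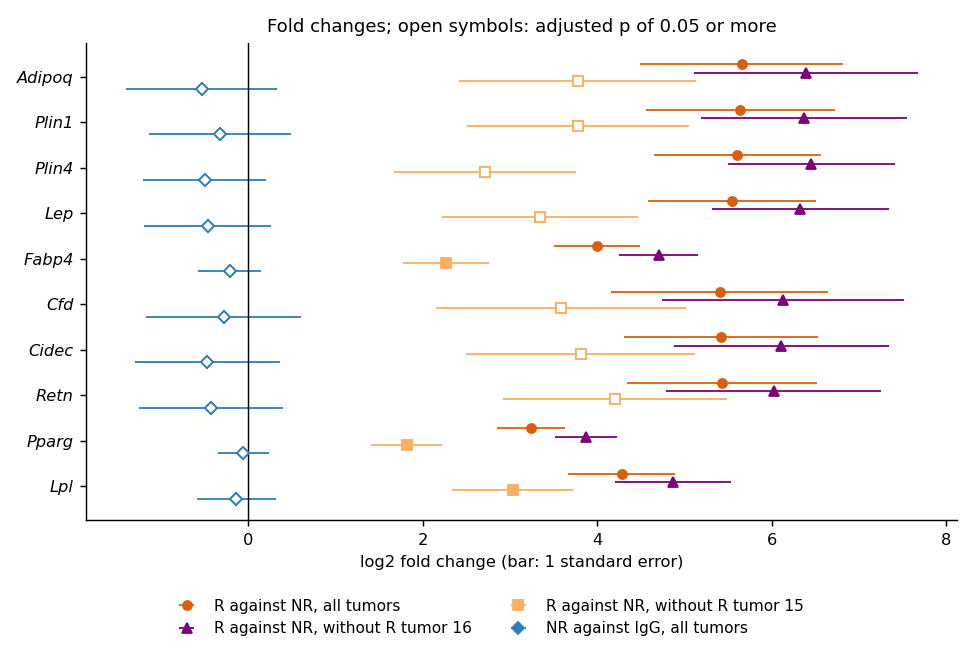
Log2 fold change of each fat cell gene with a bar of 1 standard error, for R against NR with all tumors (circles), without R tumor 15 (squares) and without R tumor 16 (triangles), and for NR against IgG (diamonds); open symbols have an adjusted p of 0.05 or more. All values for R lie to the right of 0, but without R tumor 15 only Fabp4, Pparg and Lpl keep a filled symbol, and the diamonds lie within or near 1 standard error of 0.

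Beyond the 10 genes, 50 further genes of fat cell metabolism were followed in 5 written lists. Of these, 26 were called higher in R than in NR and 0 lower, with a median log2 fold change of 1.71 against 0.02 for all genes tested, where 12.5% of all genes tested were called higher and 0.663% lower. Genes of lipolysis, the release of fatty acids from the droplet, rose in 6 of 9 cases with a median of 3.28 (1.63 without R tumor 15). Lipe, the hormone-sensitive lipase, was at 118.5 and 23.7 CPM in R tumors 15 and 16 and at most 10.5 CPM elsewhere (log2 fold change 3.28 ± 0.37 SE, adjusted p = 6.74e-06, edgeR). Adrb3, the receptor through which noradrenaline starts lipolysis, was at 25.9 and 6.52 CPM in the R tumors and at most 0.956 CPM elsewhere (log2 fold change 5.61 ± 1.01 SE, adjusted p = 0.000697), and Aqp7, the glycerol channel, rose by 5.09. Plin2 and Abhd5, which act on droplets in most cell types, had log2 fold changes of -0.08 and -0.20 and were not called.

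Uptake and triglyceride synthesis followed with 7 of 13 genes higher in R, where 12.5% of all genes tested were. The median log2 fold change was 1.56 (0.78 without R tumor 15). Cd36, the fatty acid transporter, was at 275.4 and 89.8 CPM in the R tumors and at 4.03 to 26.8 CPM elsewhere (log2 fold change 3.47 ± 0.62 SE, adjusted p = 0.000706, edgeR). Pck1, which makes the glycerol backbone in fat cells, was at 172.5 and 18.7 CPM against at most 5.399 CPM, and rose by 5.92 ± 1.06. Gpd1 rose by 4.81, while Dgat1, Gpat3 and Lpin1 were not called. Of the transcription factors and adipogenesis genes, 6 of 10 were called, with a median of 1.42 (0.63 without R tumor 15). Cebpa, the C/EBP factor of mature fat cells, was at 74.9 and 30.5 CPM in the R tumors and at 13.002 to 23.1 CPM elsewhere (log2 fold change 1.66, adjusted p = 7.13e-05, edgeR). Cebpb and Srebf1, which many cells use, had values of -0.34 and -0.04 and were not called.

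The list of insulin response and glucose uptake had a median log2 fold change of 0.42 (0.11 without R tumor 15). In it, against 12.5% of all genes tested, 3 of 8 genes were called higher in R. Among them were Slc2a4, the insulin-dependent glucose transporter, with 4.09, and Trarg1, which regulates its traffic to the cell surface, with 4.15. Among secreted proteins and receptors 4 of 10 were called, among them Acvr1c with 5.83 and Lepr, the leptin receptor, with 3.86. Their list had a median of 2.35 (0.94 without R tumor 15). Adipor1 and Adipor2, the receptors of adiponectin, had -0.08 and 0.63 and were not called. Brown and beige fat genes, with a median of -0.14 (0.008 without R tumor 15), were called in 1 of 6 tested cases, close to the share of all genes. That gene was Ppargc1a, a coactivator of mitochondrial genes, which rose by 3.64 to 2.16 and 0.647 CPM in the R tumors. Ucp1, the uncoupling protein that defines brown fat, had no count in either R tumor, which allows levels of up to 0.0887 and 0.0844 CPM (3 counts, counting error only). Cidea, another brown fat gene, was at 0.177 and 0.225 CPM in the R tumors. Preadipocyte and fibroblast genes had a median of 1.19 (0.65 without R tumor 15). Of these, 4 of 10 were called: Dpp4 with 3.503, Pi16 with 3.03, Zfp423 with 1.92 and Lum with 1.91. Pdgfra, Dcn and Col3a1, the fibroblast genes of highest level in the list, had log2 fold changes of -0.16, -0.26 and 0.03.

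Fat cell and lymphoid genes were high together in the R tumors. All 10 B cell genes were called higher in R than in NR, with a median log2 fold change of 7.56, where 12.5% of all genes tested were. So were 6 of 6 genes of lymph node stromal cells and their high endothelial venules (median 6.96). Of naive and recirculating T cell genes 6 of 7 were called (median 1.81), and of plasma cell genes 4 of 5 (median 4.65). Without R tumor 15 these medians were 6.05, 5.98, 1.61 and 4.20. In this fit 2 tumors, as many as R has, are enough to pass the filter on low counts. The fit of 8 aPD-1 against 8 IgG tumors tested 6 of 10 B cell and 2 of 6 stroma genes. It tested all 7 naive T cell genes and 2 of 5 plasma cell genes. High levels in R alone can thus bring a gene into the test. The 10 B cell genes summed to 1484 CPM in R tumor 15 and 386.1 CPM in R tumor 16, against 2.14 to 9.504 CPM in IgG and 3.01 to 8.15 CPM in NR tumors. The stroma genes, such as Glycam1, Ccl21a and Cxcl13, summed to 422.7 and 130.5 CPM against 0.190 to 4.58 CPM. Of these lists no gene was at 0 in all tumors. R tumor 15 thus exceeded R tumor 16 in fat cell genes (median ratio 5.56), in B cell genes (median ratio 3.999) and in stroma genes (median ratio 3.21), but hardly in naive T cell genes (1.24), and it was below R tumor 16 in cytotoxic T cell genes (0.484). The part of lymphoid tissue in the fat cell levels of the R tumors was not tested.

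Among the 14 IgG and NR tumors, no relation of Adipoq with lymphoid genes passed the test. Its Pearson's r with the mean log2 CPM of each list was 0.01 for B cell, 0.19 for naive T cell and -0.10 for lymph node stroma genes (adjusted p = 0.967 each over the 4 lists, permutation test, n = 14). For plasma cell genes r was 0.45 (adjusted p = 0.432). Spearman's rho was 0.08, 0.18, -0.12 and 0.33 in the same order (adjusted p = 0.797 each). Without IgG tumor 3 and NR tumor 10, r became -0.30, 0.12, -0.28 and 0.12. In the 8 IgG tumors alone it was 0.02, -0.15, -0.11 and 0.37 (adjusted p = 0.954 each, exact permutation test). Against the B cell score, the other 9 fat cell genes had r between -0.36 (Pparg) and -0.07 (Plin4) over the 14 tumors. IgG tumor 7, which had the most fat cell transcript outside R, had the lowest B cell score of all 16 tumors (-2.49), close to that of IgG tumor 5 (-2.42). IgG tumor 2, next in fat cell transcript outside R, had a score of -1.87. In the 14 tumors the B cell genes summed to at most 9.504 CPM and the stroma genes to at most 4.58 CPM. Those 2 scores rest on few counts per gene, so a small r cannot show that a relation is absent. Over all 16 tumors a coefficient would mostly reflect the R tumors, which form a cluster of their own in both measures.

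**Figure D4:**
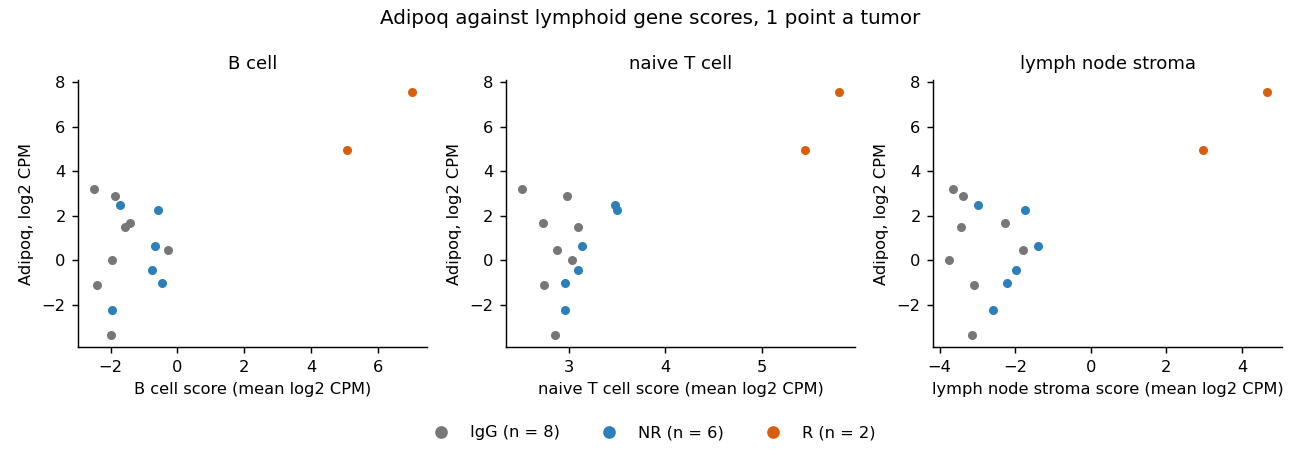
Adipoq (vertical axis, log2 CPM) against the mean log2 CPM of B cell, naive T cell and lymph node stroma genes (horizontal axes), with 1 point for each of the 8 IgG (grey), 6 NR (blue) and 2 R tumors (orange). The R tumors stand alone at the upper right, and the other 14 show no clear slope (r = 0.01, 0.19 and -0.10). In those 14 tumors the B cell genes sum to at most 9.504 CPM and the stroma genes to at most 4.58 CPM.

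A model with the B cell score and the group as terms asked the same of every gene. The slope on the score within groups passed an adjusted p of 0.05 for 0 of the 10 fat cell genes, and for 8 of 18251 genes, 0.0438% (edgeR). An unadjusted p under 0.05 was reached by 418. Over the 10 fat cell genes the standard error of the slope ran from 0.22 (Pparg) to 0.76 (Cfd) log2 units. A small slope with a wide error thus cannot show that a relation is absent. For Adipoq the slope was -0.09 ± 0.69 log2 units per unit of score (SE, adjusted p = 1.00). Without the group term, which lets the R tumors set the slope, all 10 passed, as did 18.7% of all genes.

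Genes whose levels were most like that of Adipoq over the 16 tumors were, outside the 10 genes and among the 13933 with a mean of at least 1 CPM, Ces1d (r = 0.964), Krt18 (0.955), Serpina3c (0.948), Slc7a10 (0.945), Wfdc21 (0.944), Pnpla3 (0.942), Krt19 (0.941), Klhdc7a (0.940), Hp (0.938) and Dmbt1 (0.937). All 16 tumors enter this ranking, so the R tumors weigh in it, and 9 of the 10 genes, all but Hp, had a mean of under 1 CPM in the other 14 tumors (0.158 to 0.840 CPM) and entered it through the R tumors. The list is a description. Over the 14 IgG and NR tumors these genes had r of 0.870 (Dmbt1) to 0.928 (Ces1d). Slc7a10, an amino acid transporter, and Pnpla3, a lipid droplet enzyme, are known from fat cells. Krt18 and Krt19 are keratins of simple epithelia. The 5 genes least like Adipoq were Qrich1 (r = -0.827), Pax6, Rcor2, Ccdc57 and Vipr2 (r = -0.810), with r of -0.516 to -0.670 over the 14 tumors.

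Some genes of tissues that lie near or in subcutaneous fat had positive r with Adipoq in the 14 IgG and NR tumors, though none of those listed here passed the adjusted test there. Of the mammary epithelium list, 6 of 10 genes were tested, and they had a median r of 0.75 with Adipoq over the 14 tumors, from 0.38 for Csn3 to 0.90 for Krt18. All 6 were called higher in R than in NR (median log2 fold change 5.66, and 4.57 without R tumor 15). The fit of 8 aPD-1 against 8 IgG tumors, whose filter on low counts asks for more tumors, tested 4 of them. The list summed to 0.711 to 8.09 CPM in IgG, 0.671 to 4.86 CPM in NR and 153.6 and 55.9 CPM in the R tumors. The milk protein genes Csn2, Csn1s1 and Lalba stayed below 1 CPM in every tumor and Wap was at 0 in all. Red blood cell genes had a median r of 0.71 over the 14 tumors and 0 of 5 were called between R and NR. Endothelial genes had a median r of 0.56, with 3 of 7 called between R and NR. Their median log2 fold change was 1.16, and 0.71 without R tumor 15. Between R and NR, where 12.5% of all genes tested were called higher, 0 of 5 keratinocyte, 0 of 8 skeletal muscle, 1 of 5 sebaceous gland, 1 of 8 macrophage, 2 of 5 lymphatic endothelial, 3 of 6 nerve and 6 of 10 cytotoxic T cell genes were called, all higher in R. Without R tumor 15 the median log2 fold change was -0.14 for sebaceous gland, 0.54 for macrophage, 1.71 for lymphatic endothelial and 0.63 for nerve genes. For cytotoxic T cell genes it was 1.68 with both R tumors, 2.003 without R tumor 15 and 0.50 without R tumor 16.

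Fat lipolysis genes had a median r of 0.60 with Adipoq over the 14 tumors, secreted and receptor genes 0.40, transcription factors and adipogenesis genes 0.37, insulin response genes 0.17, and uptake and triglyceride synthesis genes 0.15, against 0.92 for the 9 other fat cell genes themselves and 0.02 for all 18250 genes. Of all 50 further fat genes, 41 had a positive r, with a median of 0.30. Brown and beige fat genes had a median of 0.01, B cell genes 0.07, naive T cell genes 0.11 and lymph node stroma genes 0.04. In these 14 tumors the B cell genes summed to at most 9.504 CPM and the stroma genes to at most 4.58 CPM. The small r of these 2 lists thus cannot show that a relation is absent. Skeletal muscle genes had 0.19, although they were very high in IgG tumor 6, and macrophage and monocyte genes 0.34. Red blood cell genes summed to 24.6, 21.7 and 28.3 CPM in IgG tumor 1, NR tumor 9 and NR tumor 14, the tumors with a high mitochondrial share, and to 33.7 to 246.8 CPM in the others. The part of blood, vessels and mammary epithelium in the levels of the fat cell genes was not tested.

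**Figure D5:**
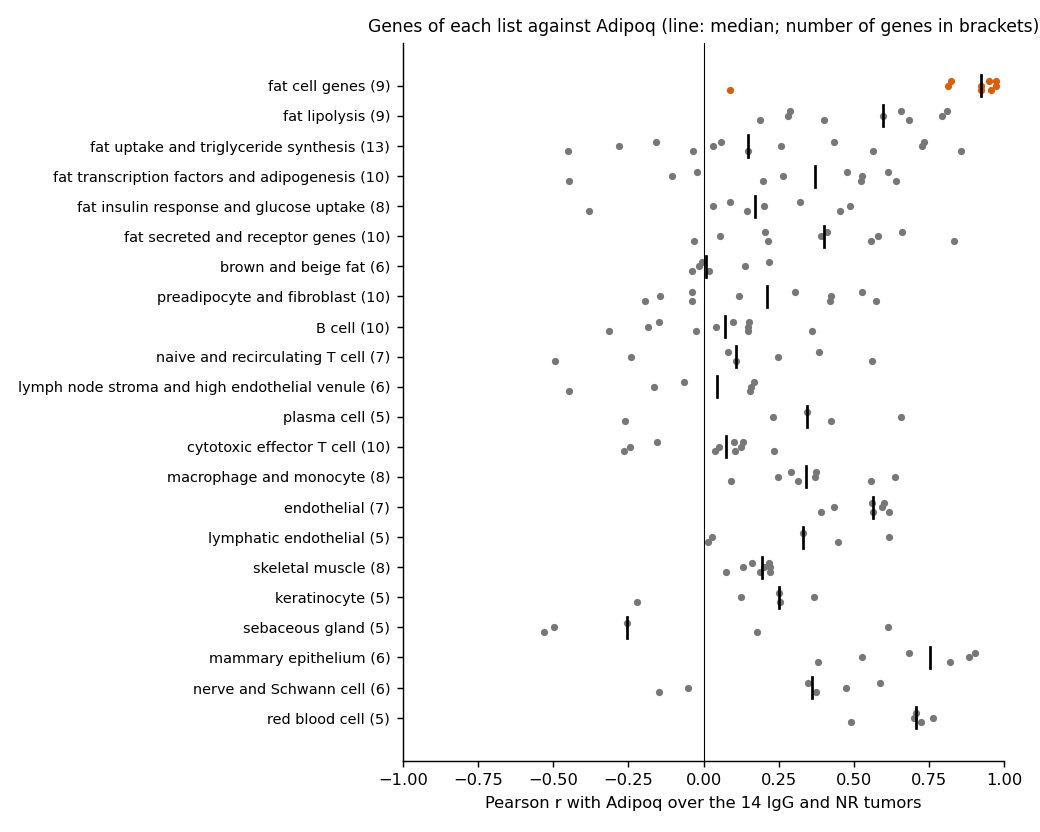
Pearson's r with Adipoq over the 14 IgG and NR tumors (horizontal axis) for each tested gene of each list, with the list's median as a line and its number of genes in brackets; the fat cell genes are in orange. Fat cell genes lie between 0.813 and 0.973 except Pparg at 0.09, mammary, red blood cell, lipolysis and endothelial lists have medians of 0.56 to 0.75, and B cell, naive T cell and lymph node stroma lists have medians of 0.04 to 0.11. The B cell and lymph node stroma genes have few counts in these 14 tumors (sums of at most 9.504 and 4.58 CPM).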

How the data were processed

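Bulk RNA-seq of 16 MC38 tumors was analysed, 8 IgG, 6 NR and 2 R. The authors prepared strand-specific libraries from poly(A)-enriched RNA, aligned paired reads with STAR 2.6 to GRCm38 (Ensembl release 91) and estimated counts per gene with RSEM 1.3.0. They deposited expected counts with no normalization, in 1 table with a column per tumor. Expected counts share reads that fit several genes between them, so 7.84% of the values were not whole, and all were rounded here. The 92 spike-in entries, at most 185 counts in a tumor, were left out. Symbols, coordinates and exon lengths came from GENCODE release 21 for mouse and matched 53274 of 53465 identifiers. Promoter windows were those of RefSeq. Every tumor came from another mouse.

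Counts were tested in R 4.3.3 with edgeR 4.0.16 (TMM scaling, low counts filtered by its default over 3 groups, robust quasi-likelihood test) in 1 fit of 16 tumors, and aPD-1 against IgG in a fit of 2 groups. Benjamini-Hochberg adjustment covered all genes tested. Correlations used log2 CPM with a prior count of 2 and 100000 permutations in Python 3.11.15 (numpy 2.4.6, pandas 2.3.3, scipy 1.17.1), or all orders for 8 tumors. Figures were drawn with matplotlib 3.10.9. On simulated counts with 200 changed genes among 18251, the test recovered 82.5% of 4-fold and 40.5% of 2-fold changes for R against NR, and 88.5% and 68% for NR against IgG. The changed genes were drawn at random from genes above a low level, and recovery asked for an adjusted p alone. For the fat cell genes, standard errors for NR against IgG ran from 0.29 (Pparg) to 0.89 (Cfd) log2 units, so these shares need not hold for them. Intervals and floors cover counting error only.

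Results were recomputed with DESeq2 1.42.0, with its size factors in edgeR, other filters, only the groups compared, an adjusted p alone, other scores and prior counts, and leaving out each tumor. Leaving out the 5 IgG and NR tumors that stood apart was added after the data were seen. The 10 genes, the 22 lists and the tests were chosen with earlier results of these data known. All 10 genes and all genes of the fat lists could be named, of each other list the 4 of highest level and those that passed a test, and the 10 genes most and 5 least like Adipoq at a mean of at least 1 CPM. The labels give the R and NR groups, which the study based on staining, not on RNA. The values of 1 listed gene are not reported here. Spatial transcriptomics and histology were not analysed here.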

Additional observations from a re-analysis of the deposited data

Results flagged for a closer look

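Each fat cell gene was checked for a tumor far from the rest of its group in the 8 IgG and the 6 NR tumors, which made 20 groups. A single one stood out: Lep in NR tumor 13, at 1.85 CPM, whose gap to the next NR tumor was 0.642 of the group's whole range against a critical value of 0.625. Chance flags about 1 in 20 such groups. NR tumor 13 was also among the highest 4 of the 14 IgG and NR tumors for 9 of the 10 fat cell genes.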

How the results depend on the processing

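Calls for R against NR and for R against IgG were 10 of 10 under every alternative run, DESeq2 (9 of 9, as it gave no adjusted p for Cfd) and the fit without the 5 tumors that stood apart included, except that they fell to 3 of 10 in both comparisons without R tumor 15, so the count ran from 3 to 10 over single tumors left out. No fat cell gene was called between NR and IgG or between aPD-1 and IgG under any alternative. DESeq2 called 89 genes higher and 1 lower in aPD-1, and the treatment contrast in the fit of 3 groups called 233 and 1, where the main test called 0. Without the group term, the slope on the B cell score passed for 10 of 10 genes, and the slope of Adipoq turned from -0.09 to 0.60. It was 2.04 on the naive T cell score, 0.23 without the 5 tumors that stood apart and -0.61 to 0.43 when single tumors were left out, none of these 3 with an adjusted p under 0.05.

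The small values for NR against IgG turned positive without IgG tumor 7 for Plin1 (range over single tumors left out -0.93 to 0.093), Cfd (-0.94 to 0.34), Cidec (-1.05 to 0.017), Retn (-1.09 to 0.19), Pparg (-0.13 to 0.10) and Lpl (-0.33 to 0.029). Plin1 did so also without IgG tumor 2, and Lpl without IgG tumor 6. For Lpl the value was 0.033 without the 5 tumors. The cause was not tested. The pooled r of Adipoq with lymphoid scores over 16 tumors, 0.71 for B cell, 0.74 for naive T cell, 0.68 for lymph node stroma and 0.79 for plasma cell genes, became 0.012, 0.19, -0.10 and 0.45 in the 14 IgG and NR tumors, and leaving out single tumors gave 0.48 to 0.782, 0.541 to 0.821, 0.422 to 0.749 and 0.637 to 0.864. With R tumor 15 left out, the first 3 of these r no longer passed. Spearman's rho over the 16 tumors was 0.38, 0.45, 0.25 and 0.55 in the same order, and none passed (adjusted p = 0.118 to 0.350, permutation test). No paired analysis was possible because the replicate numbers run from 1 to 16 with none shared between groups. With 2 R tumors that differ several-fold, and at most 1 count of Adipoq in IgG tumor 3, low levels and the size of the rise are the least certain values.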
